A study of Mus musculus with 6 samples.

Results

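CNT sub3 is the minor connecting tubule cluster of a single-cell survey of the mouse kidney, held apart by the authors from the larger cluster CNT sub2. Its members are the cells whose class the authors gave as CNT and whose name among 22 hierarchical clusters was CNT sub3, which are 138 of 22154 cells and 138 of the 1116 cells of the CNT class. Another 16 cells carried the same cluster name within other classes, 11 of them in DCT2, the late distal convoluted tubule, and they were left out of the main values. CNT sub2 held 964 cells and serves as the comparison.

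The cells came from kidneys of wild-type (WT) C57BL/6J mice aged 16 weeks. The furosemide group received the loop diuretic at 70 mg/kg body weight and the vehicle group received vehicle, both daily for 1 week in a gel diet holding 104 µmol of sodium per kcal. Each group had 3 libraries, numbered 2, 4 and 6 under furosemide and 1, 3 and 5 under vehicle, and counts were deposited for a panel of 456 genes made with BD Rhapsody bead capture. Nothing in the labels says whether the libraries of a group came from separate animals, so p-values measure only the spread between libraries, which may be technical.

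The connecting tubule joins the distal convoluted tubule to the collecting duct and is a main site of regulated calcium reabsorption. Calcium enters its cells through the channel Trpv5, is carried across the cytosol by the calbindins S100g and Calb1, and leaves through the exchanger Slc8a1. The same cells take up sodium through the epithelial sodium channel under aldosterone, with Hsd11b2 shielding the receptor from glucocorticoids. Intercalated cells, which move acid and base with a proton pump and chloride/bicarbonate exchangers, lie among them, and a furosemide block of the thick ascending limb sends more salt to this segment.

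The libraries held 3051 to 4439 cells and 4819988 to 7635509 counts each. CNT sub3 had 26, 33 and 26 cells in the furosemide libraries 2, 4 and 6, with 53337, 59596 and 45199 counts. It had 21, 17 and 15 cells in the vehicle libraries 1, 3 and 5, with 28815, 32017 and 19328 counts. The median cell held 1521 counts and 90 detected genes in CNT sub3, against 1864 counts and 119 genes in CNT sub2. CNT sub3 made up 9.91% to 15.4% of CNT cells in the furosemide libraries and 12.3% to 14.5% in the vehicle libraries. These shares are given as composition only, since the clustering method is not given in the sources used here and genes of the panel such as Calb1 differed between treatments in CNT sub2. The same barcode number occurred in more than 1 library for 392 of all cells and for 0 cells of CNT sub3.

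The cells carried the markers of the connecting tubule, some of which may have served to name the class. S100g was counted in all 138 cells and Calb1 in 137 of them. Trpv5 was counted in 110 cells, which is 79.7% with an exact 95% interval of 72.0% to 86.1%, against 68.0% of DCT2 cells and 1.89% of DCT cells, whose median depths were 1625 and 1329 counts. Intervals and limits of this kind cover counting error only. Over single libraries the Trpv5 share was 60.0% to 90.9% in CNT sub3 and 88.1% to 96.4% in CNT sub2. With cells thinned to 500 counts it was 19.0% to 58.8% in CNT sub3 and 56.5% to 66.7% in CNT sub2. Slc8a1 was counted in 29 cells, or 21.0%, against 32.1% of CNT sub2 cells and 27.0% of DCT2 cells. With every cell thinned to 500 counts these Slc8a1 shares were 9.49% in CNT sub3 and 8.47% in CNT sub2, and the gene was counted in 0 of 4475 proximal s2/s3 cells, of median depth 1472. The podocyte gene Nphs1 and the T cell gene Cd4 had 0 counts in CNT sub3, and the macrophage genes Cd68 and C1qa together lay at 0.0955% of their level in the immune class.

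S100g took an unusually large part of the counts in these cells. It made up 60.8%, 41.2% and 60.4% of panel counts in CNT sub3 of the furosemide libraries 2, 4 and 6, and 51.8%, 52.0% and 59.4% in the vehicle libraries 1, 3 and 5. In CNT sub2 the same libraries gave 41.4%, 29.5% and 43.6% under furosemide and 38.1%, 40.5% and 32.4% under vehicle. CNT sub3 was the higher of both clusters in 6 of 6 libraries, with a ratio of means of 1.45, while the treatments overlapped within each cluster. Levels below are panel counts scaled to a common library total (CPM), summed over the cells of a library and then averaged over libraries, so a gene holding most of the counts lowers the CPM of the rest. Over the 212 genes with at least 100 CPM in either cluster the median ratio of CNT sub3 to CNT sub2 was 0.713, and it was 0.972 with S100g left out of the totals, an alternative added after the data were seen. CNT sub3 was higher in all 6 libraries for 16 of these genes (7.55%) and lower in all 6 for 72 (34.0%). The clusters were made from counts of these same cells, so differences between them are given as a description with no test.

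**Figure D1:**
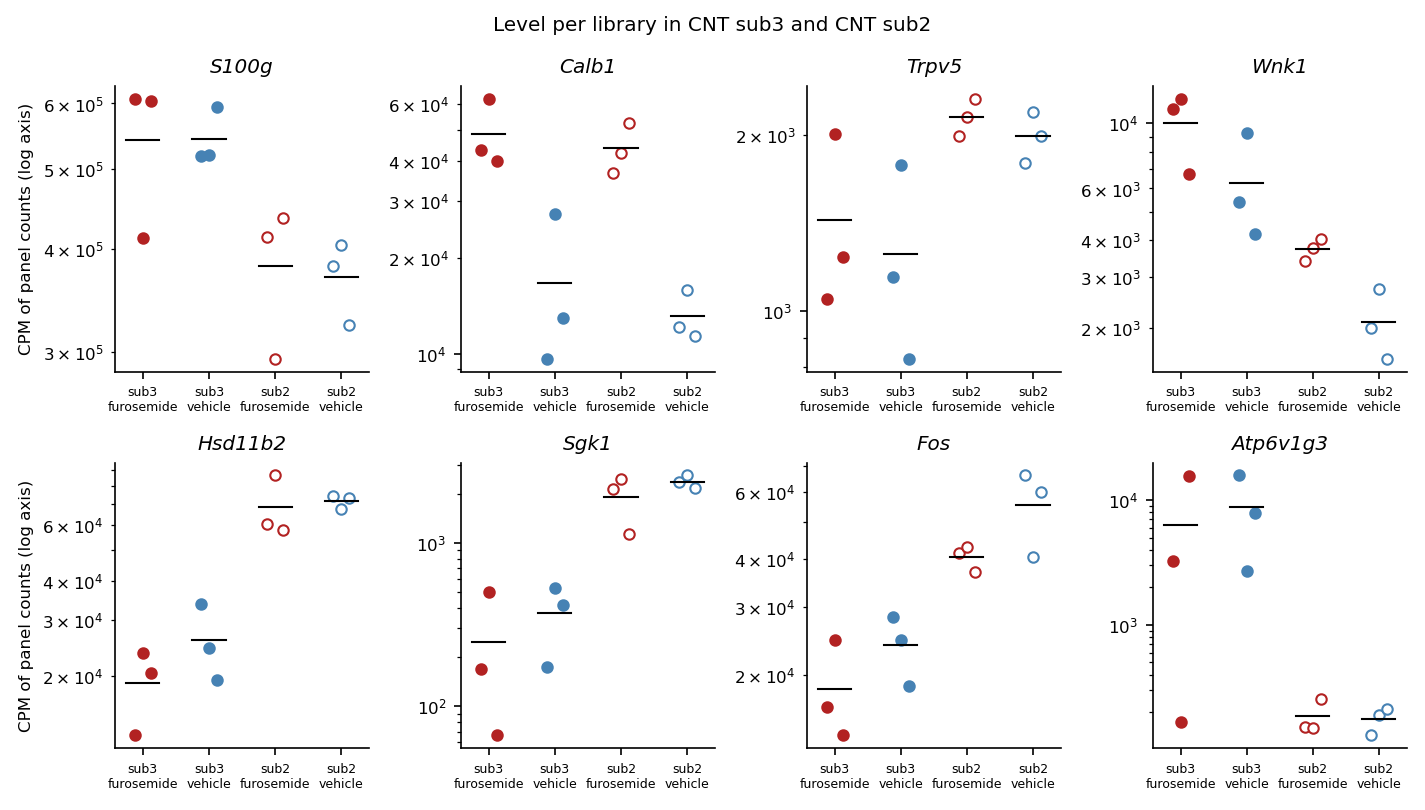
Level in CPM of panel counts (log axes) of 8 genes in each library, with CNT sub3 filled and CNT sub2 open, furosemide in red and vehicle in blue; bars mark means over 3 libraries. S100g and Wnk1 lie higher in CNT sub3 and Hsd11b2, Sgk1 and Fos lower in every library, whereas Calb1 separates by treatment in both clusters and Atp6v1g3 ranges from 168 to 15721 CPM among the CNT sub3 libraries.

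The other calcium genes did not share a direction. Calb1 averaged 32630 ± 19984 CPM in CNT sub3 and 28499 ± 17610 CPM in CNT sub2 (SD, n = 6 libraries each), and CNT sub3 was the higher in 4 of 6 libraries. Trpv5 averaged 1343 ± 457 CPM in CNT sub3 and 2074 ± 182 CPM in CNT sub2, lower in CNT sub3 in 6 of 6 libraries, with a ratio of 0.647 that became 0.864 without S100g in the totals. Kl, the co-receptor of the phosphate hormone FGF23, averaged 12918 ± 5613 CPM in CNT sub3 and 9608 ± 2126 CPM in CNT sub2 and was higher in 4 of 6 libraries. The 7 calcium and magnesium genes above the level limit, S100g included, had a median ratio of 1.14, against 0.713 over all 212 genes. Without S100g in the totals, the median of the other members was 1.38, against 0.972.

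Genes of aldosterone-regulated sodium transport were lower in CNT sub3. Of 11 members of the sodium channel and aldosterone list above the level limit, 8 were lower in all 6 libraries and 1, Wnk1, was higher in all 6, beside 34.0% and 7.55% of all 212 genes. The median ratio of the list was 0.622, against 0.713 over all 212 genes, and 0.849 against 0.972 without S100g in the totals. Hsd11b2 had 12974, 23643 and 20465 CPM in CNT sub3 of the furosemide libraries and 33837, 24612 and 19350 CPM in the vehicle libraries. In CNT sub2 it had 60682, 86267 and 58046 CPM under furosemide and 74110, 67347 and 73341 CPM under vehicle. The ranges of the clusters did not overlap, at a ratio of 0.321. Sgk1, the aldosterone-induced kinase that keeps sodium channels at the surface, averaged 310 ± 198 CPM in CNT sub3 and 2136 ± 523 CPM in CNT sub2. It was counted in 25.4% of CNT sub3 cells and 76.5% of CNT sub2 cells, or 6.57% and 48.8% after thinning. The channel subunits differed less, with ratios of 0.645 for Scnn1a, 0.430 for Scnn1b and 0.622 for Scnn1g, each lower in CNT sub3 in 6 of 6 libraries. Without S100g in the totals Hsd11b2, Sgk1 and Scnn1b kept ratios of 0.439, 0.193 and 0.588, while Scnn1a and Scnn1g moved to 0.863 and 0.849.

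Principal cell genes followed in the same direction. Aqp2, the water channel set by vasopressin, was counted in 3 CNT sub3 cells, or 2.17%, and in 13.5% of CNT sub2 cells, against 0.0485% of thick ascending limb cells of median depth 1502. Fxyd4, a regulator of the sodium pump in the collecting duct, was counted in 51 CNT sub3 cells, or 37.0%, and in 89.8% of CNT sub2 cells. The 4 principal markers of the panel summed to 18.1% of their level in cortical principal cells in CNT sub3 and to 49.0% in CNT sub2. Hsd11b2, already described, held the larger part of this sum in every library of both clusters. The other markers, Aqp2, Fxyd4 and Scnn1g, together took a median of 0.688% of a cell's counts in CNT sub3 and 1.60% in CNT sub2. Cd8a, which encodes a T cell surface protein, was counted in 9 CNT sub3 cells (6.52%) and in 31.3% of CNT sub2 cells, or 5.11% and 14.6% after thinning. In the immune class it was counted in 0.733% of cells, of median depth 817.

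Wnk1, a kinase that controls the thiazide-sensitive cotransporter, lay in the other direction. It had 11230, 12115 and 6748 CPM in CNT sub3 of the furosemide libraries and 5414, 9245 and 4191 CPM in the vehicle libraries. In CNT sub2 it had 3406, 3770 and 4039 CPM under furosemide and 2004, 2731 and 1575 CPM under vehicle. The ranges of the clusters did not overlap, at a ratio of 2.79. Ppp1r1a, an inhibitor of protein phosphatase 1 found in the thick ascending limb and distal convoluted tubule, averaged 1852 ± 917 CPM in CNT sub3 and 269 ± 67.2 CPM in CNT sub2, higher in 6 of 6 libraries. Fxyd2, a subunit that tunes the sodium pump, averaged 1092 ± 653 CPM in CNT sub3 and 204 ± 81.3 CPM in CNT sub2, again higher in 6 of 6. Sfrp1, a secreted Wnt inhibitor, had a ratio of 5.80 and was higher in 5 of 6.

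In the distal convoluted tubule these genes are abundant, and for Wnk1 and Ppp1r1a the level in CNT sub3 lay between that segment and CNT sub2. Wnk1 averaged 8157 CPM in CNT sub3, against 2921 in CNT sub2, 20695 in DCT2 and 23541 in DCT. Ppp1r1a averaged 1852 CPM in CNT sub3, against 269 in CNT sub2, 13764 in DCT2 and 27547 in DCT. Slc12a3, the thiazide-sensitive cotransporter that defines the distal convoluted tubule, averaged 641 CPM in CNT sub3, against 177 in CNT sub2, 67366 in DCT2 and 101189 in DCT. It was counted in 21 CNT sub3 cells, or 15.2%, beside 14.7% of CNT sub2 cells and 14.1% of thick ascending limb cells. Its level in CNT sub3 was 206, 3054 and 88.5 CPM in the furosemide libraries and 416, 31.2 and 51.7 CPM in the vehicle libraries, highest in furosemide library 4, where 10 of 33 cells held 182 of the 211 counts. CNT sub3 was above CNT sub2 in 3 of 6 libraries. Over the 456 panel genes the profile of CNT sub3 had a Spearman correlation of 0.930 with both CNT sub2 and DCT2, of 0.915 with type A intercalated cells, of 0.880 with DCT, of 0.877 with type B intercalated cells, of 0.872 with outer medullary principal cells and of 0.864 with cortical principal cells. That of CNT sub2 was 0.940 with cortical principal cells, 0.913 with DCT2, 0.909 with outer medullary principal cells, 0.905 with type A intercalated cells, 0.884 with DCT and 0.867 with type B intercalated cells. These correlations run across genes measured in the same libraries and carry no test.

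**Figure D2:**
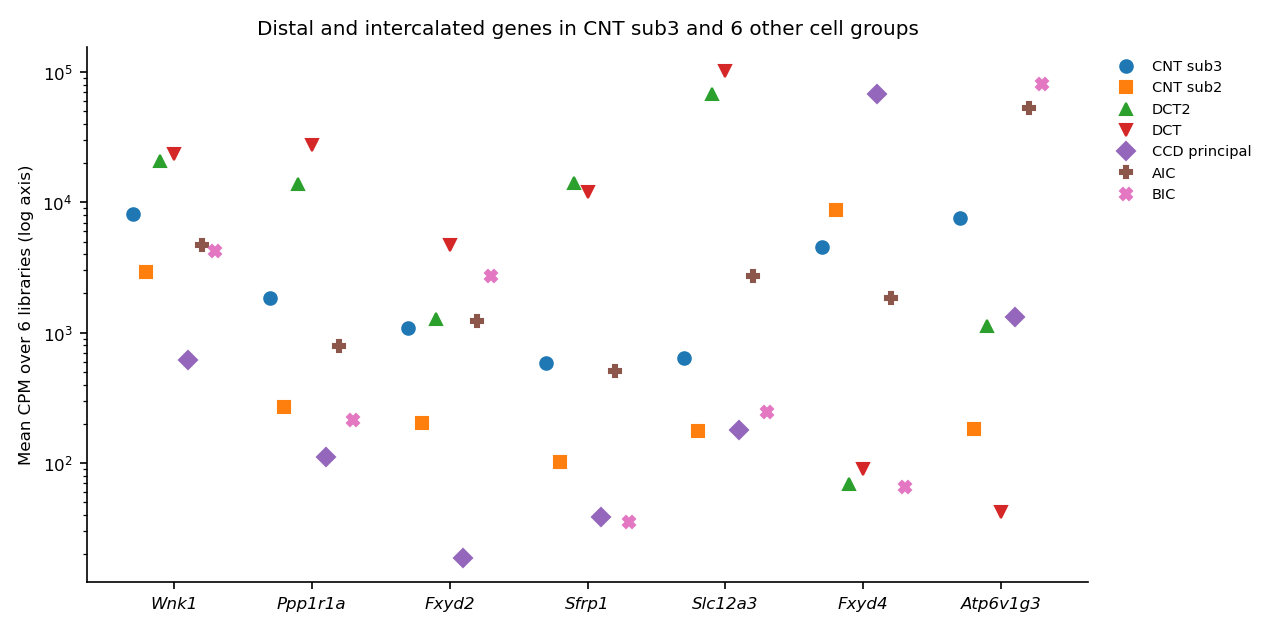
Mean level in CPM over 6 libraries (log axis) of 7 genes in CNT sub3, CNT sub2, DCT2, DCT, cortical principal cells (CCD principal) and the intercalated classes AIC and BIC. For Wnk1, Ppp1r1a and Sfrp1 CNT sub3 lies between CNT sub2 and the distal convoluted tubule classes, Slc12a3 averages 641 CPM in CNT sub3 against 67366 in DCT2, and Fxyd4 lies below its level in CNT sub2.

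Early response genes were lower in CNT sub3. All 6 members of the immediate early and heat shock list above the level limit, genes that also respond to tissue dissociation, were lower in all 6 libraries, beside 34.0% of all 212 genes. The median ratio of the list was 0.494, against 0.713 over all 212 genes, and 0.669 against 0.972 without S100g in the totals. Fos averaged 21107 ± 5587 CPM in CNT sub3 and 48132 ± 11963 CPM in CNT sub2. Egr1 averaged 1997 ± 815 CPM in CNT sub3 and 6360 ± 1723 CPM in CNT sub2. Whether handling of the cells contributed was not tested. The gene at the lowest ratio was Sgk1, at 0.145, and next to it stood Cldn4, a tight junction protein of the collecting duct, at 1809 ± 1033 CPM in CNT sub3 and 11574 ± 3978 CPM in CNT sub2. The actin-binding gene Tmsb4x averaged 5091 ± 2906 CPM in CNT sub3 and 19518 ± 2210 CPM in CNT sub2. Icam1, Hmox1, Sphk1, Kcne1, Spry1, Cd8a and Dyrk1a also ranked among the 12 lowest, at ratios of 0.158 to 0.238, each lower in 6 of 6 libraries. Lcn2, Gdf15 and Sprr2f completed the 12. Low counts lie behind many of these ratios, with 5 counts of Lcn2, 7 of Dyrk1a, 11 of Sprr2f, 12 of Gdf15, 13 of Spry1, 15 of Icam1 and 16 of Sphk1 in all of CNT sub3.

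**Figure D3:**
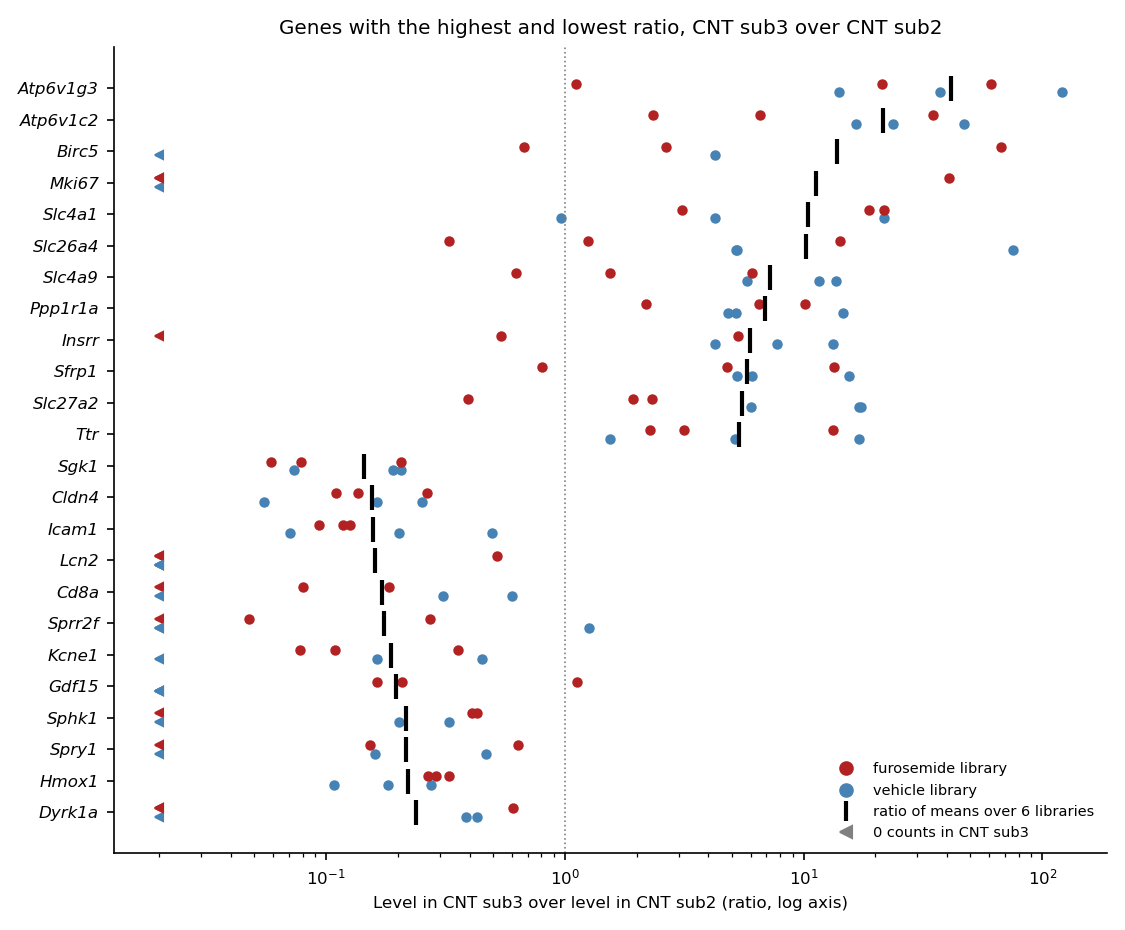
Ratio of the level in CNT sub3 to that in CNT sub2 (log axis) for the 12 genes with the highest and the 12 with the lowest ratio of means. Circles are single libraries, triangles at the left edge are libraries with 0 counts in CNT sub3, libraries with 0 counts in CNT sub2 are not drawn, and black bars are ratios of means. The highest genes spread widely between libraries, from 1.11 to 121 for Atp6v1g3, whereas Sgk1, Cldn4 and Hmox1 stay at or below 0.328 in each.

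Of the 12 highest ratios 6 belonged to genes of intercalated cells. Atp6v1g3, a subunit of their proton pump, had 3244, 168 and 15509 CPM in CNT sub3 of the furosemide libraries and 15721, 2686 and 7864 CPM in the vehicle libraries, against 130 to 255 CPM over all CNT sub2 libraries. Furosemide library 4 was at the CNT sub2 level and the other 5 libraries were above it. Atp6v1c2, another pump subunit, had a ratio of 21.5. The chloride/bicarbonate exchanger Slc4a1 of type A cells had a ratio of 10.5, and Slc26a4, Slc4a9 and Insrr of type B cells had ratios of 10.2, 7.26 and 5.98, on 179, 28 and 31 counts. Vehicle library 1 held 88 of the 179 Slc26a4 counts and 19 of the 31 Insrr counts, and without it their log2 ratios were 2.30 and 1.59, against 3.35 and 2.58 with it. The 3 type A markers summed to 7.39% of their level in type A cells in CNT sub3 and to 0.224% in CNT sub2, and the 3 type B markers to 1.76% of their level in type B cells in CNT sub3 and to 0.198% in CNT sub2.

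Those counts came from a small number of cells. The 6 intercalated markers of the panel, Slc4a1, Aqp6, Atp6v1g3, Slc26a4, Slc4a9 and Insrr, took at least 1% of counts in 26 CNT sub3 cells (18.8%) and in 6 CNT sub2 cells (0.622%). They were at 0 in 93 of the 138 cells, and 7 cells lay near the limit, between 0.5% and 2%. Among these 7 was the only cell of furosemide library 4 over the limit, at 1.32% of 608 counts. The 26 cells were 3, 1 and 9 in the furosemide libraries 2, 4 and 6 and 8, 2 and 3 in the vehicle libraries 1, 3 and 5. They had a median of 1579 counts, against 1448 in the other 112 cells. The authors' annotation lists every cell as a singlet, no doublet call was made here, and the part of mixed cells in this pattern was not tested. In the authors' second clustering all 26 were in CNT gr2, which held 99 CNT sub3 cells in all, and the other 39 were in CNT gr1.

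The 26 cells kept S100g, at a median of 48.0% of their counts against 53.0% in the other 112 cells, and differed in much else. Atp6v1g3 was counted in 26 of 26 and in 13 of 112, as the rule demanded. Genes outside the rule were also apart. Calb1 took a median of 1.17% of counts in these cells and 3.04% in the others, Clu 0.876% and 3.87%, Kl 0.364% and 1.31%, and Wnk1 0.312% and 0.935%. Rhbg, an ammonia transporter, took 3.03% in these cells and 0.877% in the others. Tmem213, found at 42163 CPM in type A and 59792 CPM in type B cells here, took 4.39% in these cells and 0.879% in the others. Fxyd4 was counted in 24 of 26 cells and in 27 of 112. The same clustering placed all of these cells together, so the contrast is a description.

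With these cells left out, an alternative added after the data were seen, the genes that chose them had to be lower, so their values only show how many counts the 26 cells held. The log2 ratio of Atp6v1g3 was 0.15, against 5.37 with them, that of Slc4a9 was 0.05, against 2.86, and that of Slc26a4 was -1.52, against 3.35. Atp6v1c2, which the rule did not use, had a log2 ratio of 1.12 without the 26 cells, against 4.42 with them. The log2 ratios of Ppp1r1a and Wnk1 rested on the other cells, at 2.99 and 1.65 without the 26 cells, against 2.78 and 1.48 with them.

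The remaining 112 cells held 2 transcript patterns that seldom met. Ppp1r1a without Fxyd4 was found in 72 cells, Fxyd4 without Ppp1r1a in 22, both in 5 and neither in 13. In CNT sub2 the same sorting gave 73, 717, 144 and 24 cells. Over all 138 cells Fxyd4 was counted in 12 of the 86 cells with Ppp1r1a and in 39 of the 52 without. Fxyd2 was counted in 63 of those 86 and in 16 of the 52, and Sfrp1 in 50 of the 86 and 7 of the 52. The 72 cells had medians of 3.64% Calb1, 1.36% Hsd11b2 and 1.08% Wnk1, while the 22 cells had 1.67% Calb1, 4.59% Hsd11b2 and 0.258% Wnk1. Their median depths were 1850 and 1281 counts, and the part of depth was not tested.

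These patterns were unequal between libraries of the same treatment. Cells with Ppp1r1a and no Fxyd4 were 21, 18 and 9 in the furosemide libraries 2, 4 and 6, and 8, 9 and 7 in the vehicle libraries 1, 3 and 5. Cells with Fxyd4 and no Ppp1r1a were 2, 2 and 7 under furosemide and 5, 4 and 2 under vehicle. Furosemide library 6 held fewer of the first kind and more of the second, and more cells with intercalated counts, than furosemide libraries 2 and 4. The 9 cells of furosemide library 4 with neither gene were most of the 13 such cells, whose median depth was 923 counts.

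**Figure D4:**
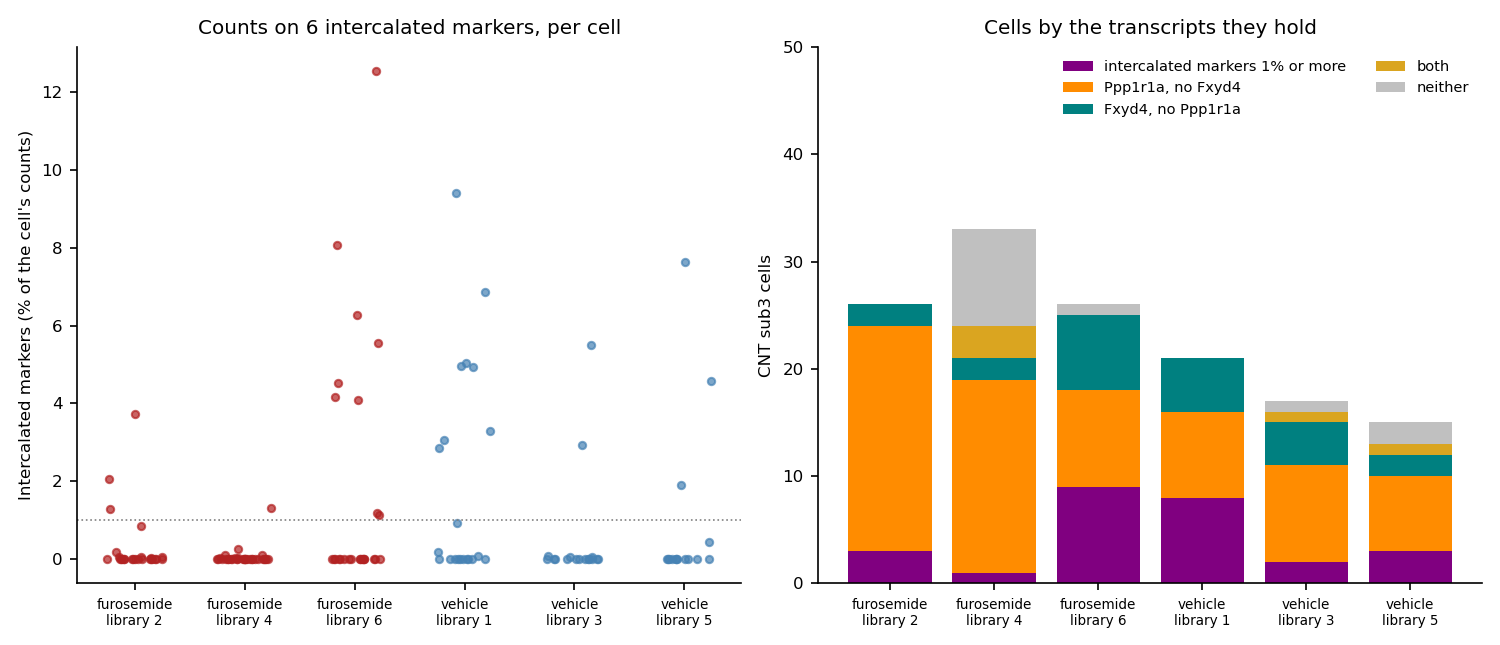
Left, percent of each CNT sub3 cell's counts on 6 intercalated markers, by library, with a dotted line at 1%. Right, number of CNT sub3 cells per library by the transcripts they hold. The 26 cells above the line are 3, 1 and 9 in the furosemide libraries 2, 4 and 6 and 8, 2 and 3 in the vehicle libraries 1, 3 and 5.

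Transcripts of dividing cells lay mostly in furosemide library 4. Mki67 and Birc5, both made by cells in division, ranked among the 12 highest ratios at 11.3 and 13.8. All 49 Mki67 counts and 87 of the 95 Birc5 counts of CNT sub3 lay in that library, where 4 of 33 cells held both. Both were found in 0 of 26 and 0 of 26 cells of the other furosemide libraries and in 0 of 21, 0 of 17 and 0 of 15 cells of the vehicle libraries. Since 1 library held these cells, the treatments are not compared. In CNT sub2 both were found in 2, 3 and 1 cells of the furosemide libraries 2, 4 and 6 and in 0 cells of each vehicle library. A count of 0 in the 53 vehicle cells of CNT sub3 still allows 5.66% of cells with such counts, taken as 3 cells of the total, and in the 344 of CNT sub2 0.872%. Without furosemide library 4 the log2 ratio of Birc5 was 1.04, against 3.79 with it. Of the other high genes, Slc27a2 and Ttr rest on 39 and 35 counts, and the log2 ratio of Slc27a2 was 1.77 without vehicle library 3, against 2.46 with it.

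The effect of furosemide within CNT sub3 was asked over 127 genes that passed the filter on low counts, with counts summed per library. By edgeR's quasi-likelihood test 0 genes (0.0%) passed an adjusted p of 0.05, and 14 (11.0%) had an unadjusted p below 0.05, 7 higher and 7 lower. DESeq2 called 2 (1.57%), Calb1 higher and Kap lower. Groups did not overlap for 8 genes higher under furosemide (6.3%) and 9 lower (7.09%). In CNT sub2 the same edgeR test called 19 of 245 genes (7.76%). Leaving out furosemide library 6 gave 15 calls, 3 higher and 12 lower, and leaving out vehicle library 3 gave 1, Calb1, while the other 4 omissions gave 0. Among the 12 lower were Fxyd4, Spink8, Tmsb4x and Krt18. Each had a higher CPM in the 26 cells with intercalated counts than in the other 112. Furosemide library 6 held 9 of those 26 cells, and the part of this composition in the calls was not tested. The values in this comparison are CPM scaled by the trimmed mean of M-values (TMM), with which the median log2 change over the 127 genes was 0.10, against -0.04 with library size alone.

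Calb1 showed the smallest unadjusted p among the genes higher under furosemide. It had 53819, 49413 and 53957 TMM-scaled CPM in the furosemide libraries 2, 4 and 6 and 8442, 24667 and 13677 in the vehicle libraries 1, 3 and 5. All furosemide libraries lay above all vehicle libraries. The log2 change was 1.75 ± 0.42 (SE), with an adjusted p of 0.197 by edgeR and of 0.0310 by DESeq2. In CNT sub2 the log2 change was 1.90 ± 0.24 with an adjusted p of 0.00486 by edgeR, and the difference of the changes was -0.05 ± 0.36.

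No calcium or magnesium gene passed the edgeR test. The 5 tested members of that list, Calb1 included, had positive log2 changes, as had 73 of all 127 genes, and their median was 0.52 against 0.10 over the 127. Calb1 and Trpm6 did not overlap between treatments, beside 6.3% of all genes that were higher without overlap. Trpm6, the magnesium channel, had 395, 439 and 299 TMM-scaled CPM in the furosemide libraries and 60.5, 253 and 54.7 in the vehicle libraries, a log2 change of 1.5 ± 0.61 (adjusted p = 0.417 by edgeR). The log2 changes of S100g and Trpv5 were 0.29 ± 0.40 and 0.38 ± 0.34, with overlapping groups. Slc8a1 was below the filter in CNT sub3, with 15, 20 and 4 counts in the furosemide libraries and 0, 3 and 2 in the vehicle libraries. In CNT sub2 its log2 change was 1.79 ± 0.33 (adjusted p = 0.0207 by edgeR).

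Among 10 tested members of the sodium channel and aldosterone list 5 had positive and 5 negative changes, at a median of 0.02, and 0 were called. Nedd4l, the ligase that withdraws sodium channels from the membrane, had 627, 545 and 508 TMM-scaled CPM under furosemide and 847, 928 and 930 under vehicle. The groups did not overlap, and the log2 change of -0.68 ± 0.31 had an adjusted p of 0.476 by edgeR. In CNT sub2 its change was -0.63 ± 0.13 (adjusted p = 0.0208). Wnk1 had a log2 change of 0.90 ± 0.38 (adjusted p = 0.432) with groups that did not overlap, beside 0.97 ± 0.24 (adjusted p = 0.0398) in CNT sub2. The subunits Scnn1a, Scnn1b and Scnn1g had log2 changes of -0.02 ± 0.37, 0.10 ± 0.30 and 0.05 ± 0.29.

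The values of Fxyd4 turned on a single library. It had 465, 359 and 5046 TMM-scaled CPM in the furosemide libraries 2, 4 and 6 and 8382, 3291 and 9847 in the vehicle libraries 1, 3 and 5. Furosemide library 6 lay within the vehicle range. The log2 change was -1.89 ± 1.04 (adjusted p = 0.635 by edgeR), and it was -4.11 ± 0.50 (adjusted p = 4.96e-06) without furosemide library 6. The share of cells with a count was 15.4%, 15.2% and 61.5% in the furosemide libraries and 61.9%, 41.2% and 40.0% in the vehicle libraries. Furosemide library 6 also held 9 of the 26 cells with intercalated counts, against 3 and 1 in the other furosemide libraries. Fxyd4 was counted in 24 of those 26 cells, and the part of this composition in the treatment values was not tested.

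Of the other genes with the smallest p, Tfrc, the transferrin receptor for iron uptake, had 720, 1715 and 687 TMM-scaled CPM under furosemide and 424, 281 and 219 under vehicle. Its log2 change was 1.74 ± 0.50 (adjusted p = 0.226 by edgeR), beside 1.82 ± 0.28 (adjusted p = 0.00871) in CNT sub2. Hspa5, a chaperone of the endoplasmic reticulum, had 2370, 2712 and 2120 under furosemide and 1301, 900 and 1039 under vehicle, a log2 change of 1.15 ± 0.31 (adjusted p = 0.226). Neither gene overlapped between treatments in CNT sub3. Clu, a secreted chaperone, averaged 50278 ± 7286 TMM-scaled CPM under furosemide and 28407 ± 5511 under vehicle (SD, n = 3 libraries each), with groups that did not overlap. Its log2 change was 0.82 ± 0.29 (adjusted p = 0.303 by edgeR), beside 0.81 ± 0.18 (adjusted p = 0.0278) in CNT sub2.

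Kap, Pck1, Adh1 and Hbegf were among the genes lower under furosemide with the smallest p. Kap, an androgen-regulated protein of the proximal tubule, had 953, 1688 and 1344 TMM-scaled CPM under furosemide and 6415, 3628 and 3720 under vehicle, with no overlap. Its log2 change was -1.78 ± 0.40, with an adjusted p of 0.197 by edgeR and of 0.0310 by DESeq2. In CNT sub2 the change was -0.38 ± 0.31. Pck1, which drives gluconeogenesis, had a log2 change of -2.25 ± 0.62 (adjusted p = 0.226 by edgeR), beside 0.02 ± 0.40 in CNT sub2. The Pck1 change rested on few counts, with 6, 12 and 1 in the furosemide libraries 2, 4 and 6 and 11, 34 and 7 in the vehicle libraries 1, 3 and 5. Adh1, an alcohol dehydrogenase, had a log2 change of -1.20 ± 0.39, beside -0.64 ± 0.16 (adjusted p = 0.0382 by edgeR) in CNT sub2. Hbegf, a ligand of the epidermal growth factor receptor, had 558, 372 and 985 TMM-scaled CPM under furosemide and 2542, 1181 and 1258 under vehicle, a log2 change of -1.41 ± 0.49 (adjusted p = 0.303 by edgeR). In CNT sub2 the Hbegf change was -0.66 ± 0.16 (adjusted p = 0.0334 by edgeR).

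Summed proximal tubule markers were also lower under furosemide in CNT sub3, on few counts. The 7 proximal markers of the panel summed to 337, 336 and 177 CPM in CNT sub3 of the furosemide libraries and to 763, 1187 and 724 CPM in the vehicle libraries, which did not overlap. No marker held more than 18 counts in a library. Slc27a2, a fatty acid transporter, held 10 counts under furosemide and 29 under vehicle, 18 of them in vehicle library 3. Slc5a2 held 9, 3 and 4 counts in the furosemide libraries and 5, 4 and 3 in the vehicle libraries, with overlapping ranges. G6pc overlapped too, with 2, 5 and 1 counts against 0, 4 and 3. In CNT sub2 the sum of the 7 markers was 175 to 194 CPM under furosemide and 164 to 238 CPM under vehicle. The sum lay at 1.32% of its proximal s2/s3 level in CNT sub3 and 0.423% in CNT sub2. In vehicle library 3, 1 CNT sub3 cell had at least 1% of its counts on these markers, the only such cell. Kap itself averaged 3133 CPM in CNT sub3, 1254 in CNT sub2, 3203 in type A intercalated cells and 2205 in DCT. The part of proximal transcripts from outside these cells was not tested.

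**Figure D5:**
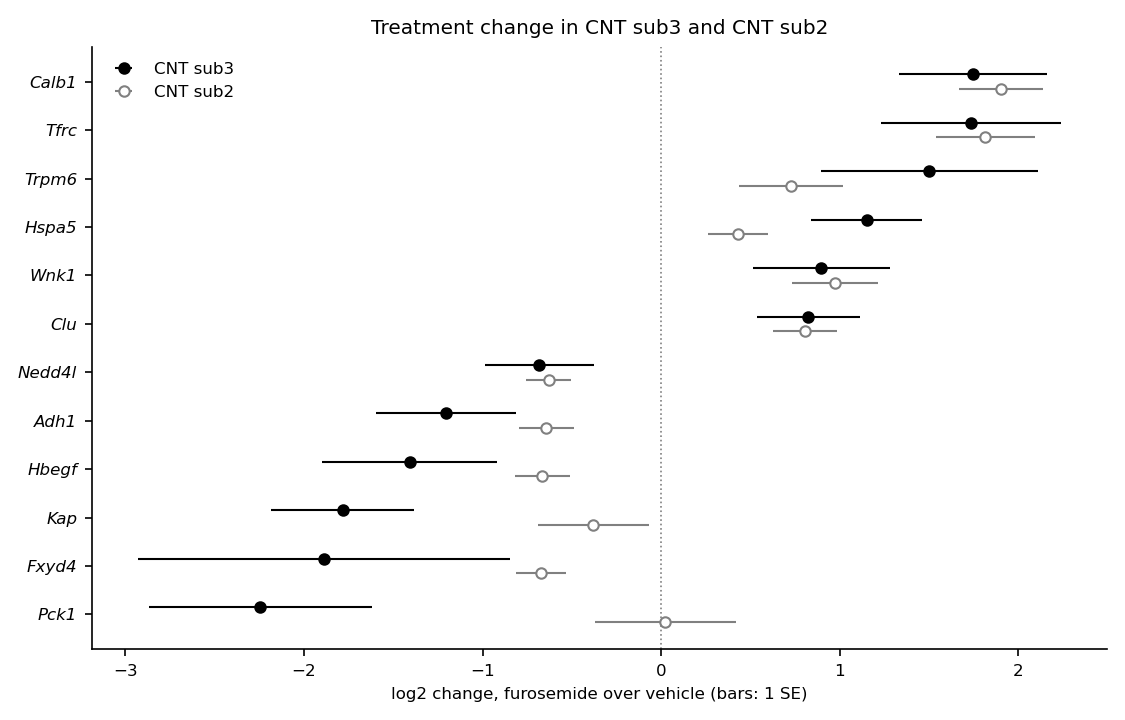
log2 change under furosemide over vehicle with 1 standard error, in CNT sub3 (filled) and CNT sub2 (open), for 8 of the genes of smallest p in CNT sub3 and for Trpm6, Wnk1, Nedd4l and Fxyd4. Calb1, Tfrc, Wnk1, Clu and Nedd4l lie close together in both clusters, whereas Kap and Pck1 lie nearer 0 in CNT sub2.

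The difference between the treatment changes of CNT sub3 and CNT sub2 was tested in 1 model over 224 genes. By edgeR 0 genes (0.0%) passed an adjusted p of 0.05 and 8 had an unadjusted p below 0.05, while limma-voom called 0 and had 10 below 0.05. The genes with the most negative difference by p were Slc27a2 at -2.97 ± 0.88, Pck1 at -2.36 ± 0.74 and Kap at -1.46 ± 0.52 on the log2 scale. Those with the most positive were Cdkn1a, an inhibitor of the cell cycle, at 2.02 ± 0.87 and Col4a1, a basement membrane collagen, at 1.45 ± 0.62, together with Gdf15, which had 12 counts under furosemide and 0 under vehicle in CNT sub3. All 6 had an adjusted p of 0.861. Furosemide library 4 held most CNT sub3 counts of these 3 positive genes. Furosemide libraries 2, 4 and 6 held 5, 31 and 5 counts of Cdkn1a and 11, 35 and 4 of Col4a1. For Gdf15 they held 1, 9 and 2. Vehicle libraries 1, 3 and 5 held 4, 3 and 0 of Cdkn1a and 2, 3 and 5 of Col4a1. Without furosemide library 4, 0 positive and 5 negative differences had an unadjusted p below 0.05 by edgeR. Without furosemide library 6 the model called 5 genes, Fxyd4, Spink8, Atp6v1c2, Id3 and Tmsb4x, all more negative in CNT sub3. In the 26 cells with intercalated counts Fxyd4, Spink8 and Tmsb4x had 9696, 14461 and 9196 CPM. In the other 112 cells they had 1951, 1610 and 3382 CPM. Furosemide libraries 2 and 4 held 3 and 1 of those 26 cells, and vehicle libraries 1, 3 and 5 held 8, 2 and 3. The part of this composition in the calls was not tested.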

How the data were processed

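Kidney cells were captured on BD Rhapsody beads and sequenced from whole-transcriptome and targeted libraries, per the labels' protocols, and Bowtie2 2.2.9 is named per the submitters' processing notes. How counts were made, on which build of the genome, and how cells were clustered is not given in the sources used here. Whole-number counts per cell for 456 genes were deposited by the authors, with a library, treatment, class and cluster for each cell. The deposited table is marked as having doublets and a mixed cluster removed and cell numbers made equal. The labels do not say if molecules or reads were counted, and the library numbers could not be matched to the replicate numbers of the sample titles.

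The members and gene lists were chosen with earlier results of these data known. Counts of CNT sub3 and CNT sub2 were summed per library, with at least 5 cells required. Treatments were compared by edgeR 4.0.16 quasi-likelihood tests (R 4.3.3) with TMM factors and edgeR's filter on low counts. Benjamini-Hochberg adjustment ran over all genes tested, and DESeq2 1.42.0 was an alternative. The difference of treatment changes was an interaction term in an edgeR model with the library as a block, with limma-voom (limma 3.58.1) as an alternative. Standard errors of edgeR changes are the log2 change divided by the root of the F statistic. Levels are CPM of panel counts, described with no test, and shares of cells have exact Clopper-Pearson intervals at 95%. For shares across depths, cells were thinned to 500 counts with a fixed seed, which left out 1 CNT sub3 and 8 CNT sub2 cells. Panel primers differ by gene, so levels are compared within a gene.

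Named genes were the markers of the panel, the 12 highest and 12 lowest ratios of CNT sub3 to CNT sub2 above 100 CPM, and, where no gene was called, the 5 (treatment) or 3 (difference) of smallest p in each direction. Members of the calcium and sodium lists, and genes the series had called in the connecting tubule, were added. Fxyd2, Tmsb4x, Kl, Rhbg, Tmem213, Fos, Egr1 and the genes called without furosemide library 6 were named after their values were seen. Some genes that the rule picks are not reported here. The procedure was tested on simulated data with 3 libraries per treatment. Figures were drawn with matplotlib 3.10.9 in Python 3.11.15.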

Additional observations from a re-analysis of the deposited data

How the results depend on the processing

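For CNT sub3 the count of genes called between furosemide and vehicle was 0 in 12 of 17 alternatives, which included RLE factors, library size alone, other filters on low counts, equal cell numbers and all cells of the cluster. It was 2 with DESeq2, 1 without the cells of the top 5% of totals, 1 with thinned cells, and 0 to 15 when each library was left out in turn, the 15 arising without furosemide library 6. A minimum of 10 cells per library, among the 12 with 0 calls, repeats the main fit. Each library held at least 15 CNT sub3 cells. For the difference between CNT sub3 and CNT sub2 the count was 0 with limma-voom, library size alone or S100g left out of the totals, and 0 to 5 when each library was left out. Calb1 had log2 changes of 1.44 to 2.21 over its alternatives, with adjusted p from 0.0107 to 0.499, and Kap -2.03 to -1.42, with adjusted p from 0.00559 to 0.499. Among the named genes 1 treatment change turned its sign, that of Hsd11b2, which ranged from -0.46 to 0.0029 as each library was left out, the last without furosemide library 2. Among the level ratios on the log2 scale Slc26a4 turned to -1.52 and Rhbg to -0.34 without the cells of intercalated counts, Rhbg ranged from -0.0045, without vehicle library 1, to 0.30 as each library was left out, and Slc8a1 to 0.27 with thinned cells and 0.20 without S100g in the totals. The causes of these turns were not tested, except that the rule for those cells used Slc26a4 itself. No paired analysis was possible because the library numbers of the deposited cells carry no replicate number of the sample titles. Depth is 1 limit, since 138 cells left 127 of 456 genes to test, with 19328 to 59596 counts per library, and genes below the filter, such as Slc8a1, could not be compared at this depth.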
